A study of Homo sapiens with 6 samples.

Results

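The genes described here encode the integrins, the cell's receptors for the matrix around it, and the laminins, a main set of ligands in basement membranes. All probe sets were taken whose symbol in the platform's probe table is an integrin alpha chain, an integrin beta chain or a laminin alpha, beta or gamma chain. They number 68 of the 22283 probe sets on the array and stand for 33 of 11963 genes: 16 integrin alpha genes, 7 integrin beta genes and 10 laminin genes. ITGB6 has no probe set under 1 symbol in the table used and was not analysed here. The RNA came from Hs578T, a human breast cancer cell line with mesenchymal traits, in which HOXA5 can be switched on. The product of HOXA5 is a DNA-binding factor of the homeobox family, and the series asks which genes follow its induction. Cells had grown for 24 h on a 10 cm dish before induction, and total RNA was hybridised to Affymetrix arrays at 0 h (uninduced), 6 h and 9 h after induction. Each time has 2 arrays, by their titles 1 from each of 2 batches of RNA, called experiments 1 and 2. The 6 h array titled experiment 2 has experiment 1 as the lot in its label, and its title was followed here. All 6 arrays carry the same inducible line, so the 0 h arrays are the uninduced line and not a parental line. The sources used here name no inducing agent and do not say whether the line is 1 clone. Time in culture and contact with the agent go with the induction, and their parts cannot be told apart. No probe set used here is named HOXA5, so the level of the induced gene was not analysed.

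An integrin is a pair of 1 alpha and 1 beta chain that spans the membrane. The pair sets the ligand: some bind laminin, others fibronectin, vitronectin, collagen or proteins on other cells. Inside the cell the beta chain is tied to actin through talin, kindlin and other adaptors, and signals through kinases such as focal adhesion kinase. A laminin is a trimer of 1 alpha, 1 beta and 1 gamma chain that assembles into the basement membrane sheet under epithelia and around muscle, fat and vessels. Mesenchymal breast cancer cells grow without an ordered basement membrane, and the integrins they carry bear on how they attach and move.

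The deposited values are intensities in arbitrary units, and their array medians ran between 18.7 and 95.7. The dimmest array was experiment 1 at 6 h and the brightest experiment 1 at 0 h, and both 6 h medians lie below those of the 4 other arrays. Experiment 1 at 9 h stands apart in the ratio of 3′ to 5′ control probe sets, a sign of RNA quality, with 1.31 for GAPDH and 1.82 for beta-actin, against 0.863 to 1.12 and 0.918 to 1.09 on the 5 other arrays. The 2% trimmed means differed 5.52-fold between arrays, and the values were therefore quantile normalised and floored at 12.7 units before log2 transformation. Below, pairs of values are always experiment 1 and then experiment 2, in normalised intensity units. A value of 12.7 is the floor, meaning only that the signal was at or below it. Vimentin, CD44, fibronectin and other markers of mesenchymal cells were above the floor on all 6 arrays for 9 of 10 genes. The luminal epithelial markers EPCAM, KRT19 and CLDN4 were at the floor on all 6, although 6 of the 10 luminal markers listed were above it on all 6. These arrays measure bulk RNA, in which fewer cells of a type and less RNA per cell cannot be told apart.

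Of the 68 probe sets, 50 were above the floor on at least 2 arrays and were tested. They stand for 27 genes: 12 alpha, 6 beta and 9 laminin genes. A further 18 probe sets were not tested, 11 of them at the floor on all 6 arrays. The 6 genes without a tested probe set are ITGA1, ITGA7, ITGAL, ITGAX, ITGB7 and LAMA1. At the other end, 19 genes were above the floor on all 6 arrays. Where a gene had several tested probe sets, as 10 genes did, the one with the highest mean over the arrays stands for it. The plot of levels by role shows every array for the 27 genes.

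**Figure D1:**
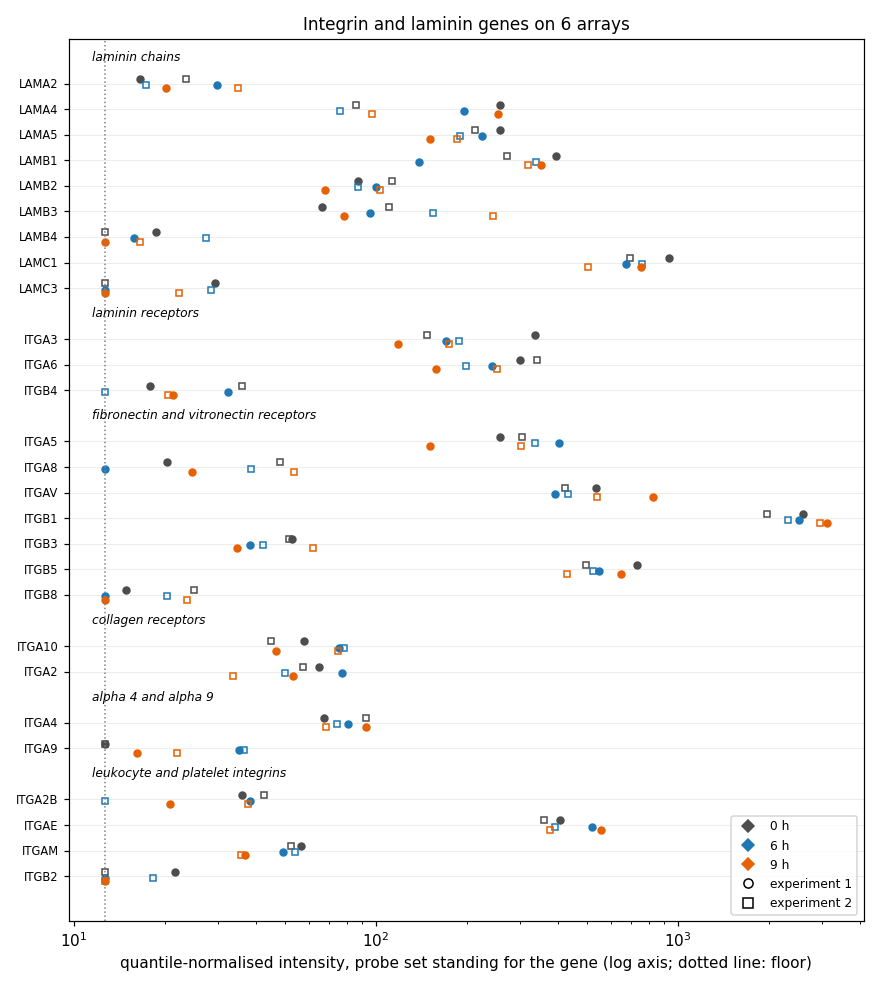
Quantile-normalised intensity on a log axis for the probe set standing for each of the 27 tested genes, grouped by role, with 1 point per array: colours mark 0, 6 and 9 h, circles experiment 1, open squares experiment 2, and the dotted line the floor of 12.7 units. ITGA9 leaves the floor only at 6 and 9 h, and the LAMA4 points split by experiment rather than by time.

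No integrin or laminin probe set passed the threshold in any comparison between times, and neither did any other probe set in the same fit. At an adjusted p of 0.05 in limma, 0 of 50 integrin and laminin probe sets were called at 6 h against 0 h, 0 at 9 h against 0 h and 0 at 9 h against 6 h, where the share of all 18360 tested probe sets called was 0% each time. At an unadjusted p of 0.05 the counts were 2, 0 and 2 of 50, beside 4.77%, 7.41% and 5.27% of all probe sets. Adding the experiment to the model as a replicate block called 66 probe sets at 9 h against 0 h, which is 0.359% of all, and 0% in the other comparisons, and none of them was an integrin or a laminin. The label of the 6 h array titled experiment 2 gives experiment 1 as its lot, and a block set by the lot called 0 probe sets at 9 h against 0 h. With the experiment of the title as the block, the lowest limma adjusted p among the genes was 0.326, for ITGA6 at 9 h against 0 h. With 2 arrays a group, p-values measure the spread between these arrays only, since the labels speak of 2 RNA batches and name no further cultures.

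The fitted changes of the group were small. The median log2 change over the 27 genes was -0.12 at 6 h against 0 h, where the median of all 10444 tested genes was 0.01, and -0.17 at 9 h against 0 h, beside -0.02 for all genes. The sign of that median was not shared by the experiments: at 9 h it was -0.30 within experiment 1 and 0.07 within experiment 2, and at 6 h -0.20 and 0.04. Leaving out experiment 1 at 9 h, the array with the high 3′ to 5′ ratios, brought the 9 h median to -0.02. Without that array the 9 h change was -0.35 for ITGA6, -0.32 for LAMA5 and -0.35 for ITGA3, against -0.68, -0.48 and -0.63 with it, and 0.10 for ITGA5, against -0.39. The part of RNA quality in these values was not tested beyond this. Between 9 h and 6 h it was -0.02, beside -0.01 for all genes. Changes smaller than 0.5 on the log2 scale in either direction made up 20 of 27 genes at 6 h against 0 h, 21 at 9 h against 0 h and 19 at 9 h against 6 h.

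Signs differed between the experiments for 16 of 27 genes at 6 h against 0 h, 9 at 9 h against 0 h and 12 at 9 h against 6 h, beside 42.2%, 36.2% and 38.7% of all genes. At 6 h against 0 h, 5 genes were higher in both experiments and 6 lower in both, and among all genes these shares were 26.9% and 25%. At 9 h against 0 h, 7 were higher and 10 lower in both, beside 28% and 29.5%. At 9 h against 6 h, 4 were higher and 8 lower in both, beside 27.4% and 27.2%. A change of at least 2-fold in both experiments was seen for 1 gene, ITGA9 at 6 h against 0 h, where 1.18% of all genes were that much higher and 1.04% that much lower. None reached it at 9 h against 0 h (2.36% and 1.08% of all genes) or at 9 h against 6 h (0.833% and 0.718%). The arrays of the later time lay wholly above those of 0 h for 3 genes and wholly below for 2 genes at 6 h, where the shares among all genes were 16.8% and 15.3%. At 9 h against 0 h the counts were 3 above and 4 below, beside 19.2% and 19.4%, and at 9 h against 6 h they were 2 above and 5 below, beside 14.8% and 15.4%. The plot of changes within the experiments shows these opposite signs as points in the upper left and lower right quadrants.

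The laminin chains showed no shared direction: of 9 tested genes, 1 was higher and 2 lower in both experiments at 6 h against 0 h, and 2 higher and 3 lower at 9 h against 0 h. LAMC1, the gamma chain of most laminin trimers, read 930 and 694 at 0 h, 670 and 756 at 6 h, then 751 and 503 at 9 h. Its change at 9 h against 0 h was -0.39 ± 0.29 (SE of the fit here and below), with 1 of the 9 h arrays inside the 0 h range. At 6 h against 0 h it was -0.17. The other LAMC1 probe set, 200770_s_at, gave 0.04 at 6 h and -0.15 at 9 h against 0 h. Within the experiments its 9 h change was -0.39 and 0.10. LAMB1, a beta chain found in many tissues, read 393 and 272 at 0 h, 139 and 339 at 6 h, then 350 and 320 at 9 h. In this probe set experiment 1 at 6 h lies far below the others, and the change at 6 h against 0 h was -1.50 in experiment 1 and 0.32 in experiment 2. The other LAMB1 probe set, 201505_at, read 290.5 and 217 at 0 h, 206 and 148 at 6 h, then 364 and 215 at 9 h. There both 6 h arrays lie below both 0 h arrays, with changes of -0.50 and -0.55 in the experiments and a fitted -0.52 ± 0.37 (limma adjusted p = 0.969). LAMA5, the alpha chain of adult epithelial and vessel basement membranes, read 257 and 212 at 0 h, 224 and 190 at 6 h, then 150 and 186 at 9 h. Both 9 h arrays lie below both 0 h arrays, for a change of -0.48 ± 0.30 (limma adjusted p = 0.785). LAMB2, the beta chain of nerve-muscle junctions and of the kidney filter, read 87.0 and 113 at 0 h, 100.2 and 87.2 at 6 h, then 67.6 and 103 at 9 h, and its groups overlap in every comparison.

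LAMB3, the beta chain of the epithelial laminin that anchors skin to the dermis, had the highest positive change of the laminins at 9 h. It read 66.1 and 110 at 0 h, 95.6 and 154 at 6 h, then 78.4 and 244 at 9 h. Each experiment was above its own 0 h array at both later times, and experiment 1 was below experiment 2 at every time, so that the 9 h and 0 h groups overlap. The change was 0.51 ± 0.60 at 6 h and 0.70 ± 0.60 at 9 h (limma adjusted p = 0.971 and 0.851). Leaving out experiment 2 at 9 h brought the 9 h change to -0.12. At 6 h it turned to -0.97 when the deposited values were taken unscaled, where the median of all genes was -1.37. LAMA2, the alpha chain of muscle basement membrane, read 16.6 and 23.6 at 0 h, 29.8 and 17.3 at 6 h, then 20.2 and 35.1 at 9 h. LAMB4 and LAMC3 were at the floor on some arrays and ran between 12.7 and 29.3 units. LAMA1 was above the floor on 1 array.

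The promoters of 3 of these genes are printed so that their letters can be read beside the values: LAMB3 and ITGA5, which hold the TGANTCA motif, and LAMA4, which differed between the experiments. TGANTCA is the site of the AP-1 proteins FOS and JUN, and TAAT is the core that homeobox proteins bind. Each window runs from 250 bases before to 50 bases after a gene's start in RefSeq, on GRCh38.p14, written 5′ to 3′ on the gene's strand with TGANTCA matches in capitals. They are LAMB3 at chr1:209651325-209651624, ITGA5 at chr12:54419217-54419516 and LAMA4 at chr6:112254518-112254817, all on the minus strand.
LAMB3: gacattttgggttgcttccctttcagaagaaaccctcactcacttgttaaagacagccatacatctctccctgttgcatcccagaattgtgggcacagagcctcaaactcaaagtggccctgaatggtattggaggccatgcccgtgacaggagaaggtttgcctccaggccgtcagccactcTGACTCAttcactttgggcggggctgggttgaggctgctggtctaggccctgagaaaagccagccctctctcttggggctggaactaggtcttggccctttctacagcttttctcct
ITGA5: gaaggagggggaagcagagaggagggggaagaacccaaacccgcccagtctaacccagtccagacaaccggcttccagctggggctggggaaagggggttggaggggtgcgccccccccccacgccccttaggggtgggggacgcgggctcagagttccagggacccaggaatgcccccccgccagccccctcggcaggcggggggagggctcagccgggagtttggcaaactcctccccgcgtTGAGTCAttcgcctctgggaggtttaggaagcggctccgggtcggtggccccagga
LAMA4: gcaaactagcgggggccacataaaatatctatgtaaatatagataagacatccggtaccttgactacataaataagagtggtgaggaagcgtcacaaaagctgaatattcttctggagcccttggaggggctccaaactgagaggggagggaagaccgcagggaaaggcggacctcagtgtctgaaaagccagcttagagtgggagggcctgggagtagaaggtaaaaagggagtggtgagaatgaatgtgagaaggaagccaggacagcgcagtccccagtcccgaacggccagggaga
RefSeq's table held 30 windows for 23 of the 33 genes, and LAMB3 has 3 of them. TGANTCA, read on either strand, was found in 2 of the 30 windows, those of LAMB3 and ITGA5 above, or 6.67%, beside 7.71% of all 35116 windows. TAAT, read on either strand, was found in 10 of 30, or 33.3%, beside 50.2% of all windows, and in none of the 3 printed, so the motifs do not overlap there. A match is letters in a window and not a measured site.

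All 3 tested chains of the laminin receptors had negative fitted changes against 0 h, none past the threshold. They ran between -0.54 and -0.32 at 6 h and between -0.68 and -0.28 at 9 h. Only 1 of the 3 was lower in both experiments at each time, beside 25% and 29.5% of all genes. ITGA3 and ITGB4 differed in sign between the experiments at both times. ITGB1, grouped with the fibronectin receptors below, also pairs with alpha 6 and was at 0.09 at 6 h and 0.42 at 9 h. ITGA6 makes the alpha chain that pairs with beta 1 or with beta 4 of the hemidesmosome. It read 299 and 342 at 0 h, 242 and 199 at 6 h, then 158 and 251 at 9 h. Both arrays at 6 h and both at 9 h lie below both 0 h arrays. The change was -0.54 ± 0.33 at 6 h and -0.68 ± 0.33 at 9 h (limma adjusted p = 0.969 and 0.707). The other ITGA6 probe set, 201656_at, gave fitted changes of -0.54 and -0.52. There the 6 h change was 0.01 in experiment 1 and -1.09 in experiment 2, and the 6 h and 0 h groups overlap. Its 9 h arrays lie below both 0 h arrays. ITGA3, the alpha chain of the main laminin receptor of epithelia, read 337 and 148 at 0 h, 170.1 and 189 at 6 h, then 118 and 175 at 9 h. The high value is that of experiment 1 at 0 h: the change at 9 h against 0 h was -1.51 in experiment 1 and 0.24 in experiment 2, a mean of -0.63 ± 0.45. ITGB4, the partner of alpha 6 in hemidesmosomes, read 17.9 and 36.1 at 0 h, 32.4 and 12.7 at 6 h, then 21.4 and 20.6 at 9 h. ITGA7, the laminin receptor chain of muscle, was above the floor on 1 array at most in either of its probe sets.

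The fibronectin and vitronectin receptor chains were tested for 7 genes, with median changes of -0.21 at 6 h and -0.16 at 9 h against 0 h. ITGB1, the beta chain shared by most matrix-binding integrins, read 2590 and 1969 at 0 h, 2510 and 2310 at 6 h, then 3114 and 2951 at 9 h. Both 9 h arrays lie above all the others. The change at 9 h against 0 h was 0.42 ± 0.22 (limma adjusted p = 0.727, or 0.330 with the replicate block), and -0.14 on the unscaled values, where the median of all genes was -0.57. ITGB1 has 5 probe sets on the array, 2 of them at the floor on all 6 arrays. The 3 tested had the same sign at 6 h and at 9 h against 0 h. Of these, 215879_at was at the floor on both 0 h arrays, so its change against 0 h could not be negative. At 9 h against 6 h the standing probe set was at 0.33, while 215879_at and 216178_x_at were at -0.34 and -0.30. These last 2 were much dimmer, at 12.7 to 23.7 and 14.0 to 46.3 units.

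ITGAV, the alpha chain of the vitronectin receptors, read 536 and 423 at 0 h, 391 and 433 at 6 h, then 825 and 538 at 9 h. The 9 h arrays lie above both other groups, with a change of 0.69 ± 0.30 at 9 h against 6 h (limma adjusted p = 0.932) and 0.48 ± 0.30 at 9 h against 0 h. Without experiment 1 at 9 h, the array with the high 3′ to 5′ ratios, these changes were 0.38 and 0.17. The change of ITGAV at 9 h against 0 h was -0.11 on the unscaled values, beside the median of -0.57 for all genes. ITGA5, the alpha chain of the classical fibronectin receptor, read 258 and 304 at 0 h, 402 and 335 at 6 h, then 151 and 301 at 9 h. Its 6 h arrays lie above both other groups, and the lowest array is experiment 1 at 9 h. The change was 0.39 ± 0.38 at 6 h against 0 h, -0.39 ± 0.38 at 9 h against 0 h and -0.79 ± 0.38 at 9 h against 6 h (limma adjusted p = 0.969, 0.869 and 0.932). That array is the one with the high 3′ to 5′ ratios, without which the 9 h change against 0 h was positive. On the unscaled values the 6 h change was -1.18, beside the median of -1.37 for all genes. The plot of 6 genes by time shows that the lines of ITGAV and ITGA5 are steeper in experiment 1 than in experiment 2 between 6 and 9 h.

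**Figure D2:**
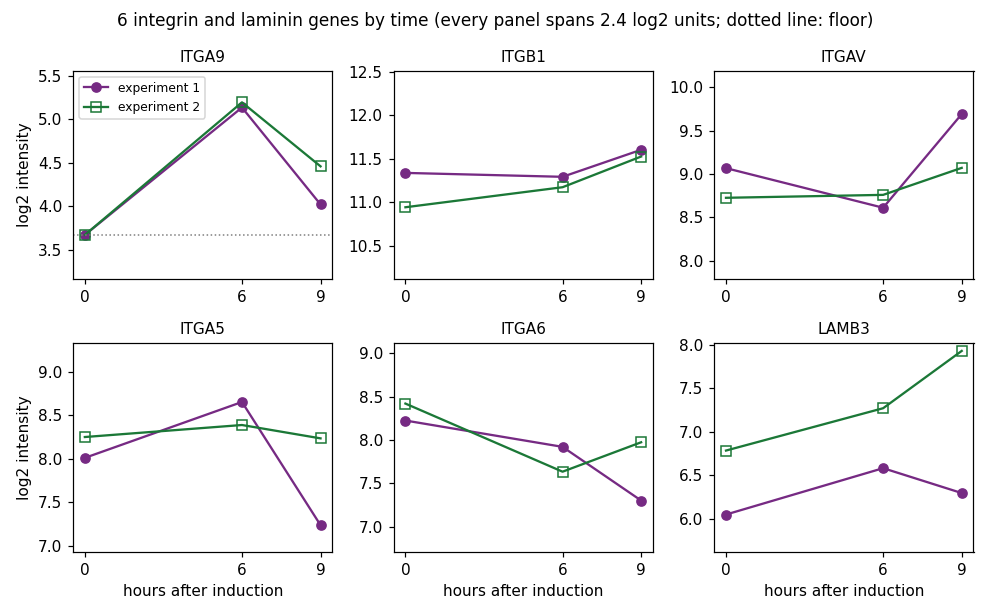
Log2 of the normalised intensity (vertical) against hours after induction (horizontal) for ITGA9, ITGB1, ITGAV, ITGA5, ITGA6 and LAMB3, each line 1 experiment, with panels of equal span. For ITGA9 both 0 h points are at the floor and the 6 h points nearly coincide, both experiments end above their 0 h value for ITGB1 and ITGAV, both end below it for ITGA6, and for LAMB3 experiment 2 lies above experiment 1 at every time.

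ITGB3, the beta chain of the vitronectin receptor of osteoclasts, vessels and platelets, read 52.6 and 51.7 at 0 h, 38.2 and 42.3 at 6 h, then 34.8 and 61.9 at 9 h. Both 6 h arrays lie below both 0 h arrays (-0.38 ± 0.46), while the 9 h arrays fall on either side of them. Its 7 probe sets disagree: 4 of 7 shared the sign of the gene's change at 6 h and at 9 h against 0 h. One of them, 204627_s_at, was at the floor on both 9 h arrays and read 22.3 and 50.8 at 6 h, so it was at least 2.64-fold lower at 9 h than at 6 h (limma adjusted p = 0.932).

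ITGB5, another beta partner of alpha V, read 733 and 495 at 0 h, 547 and 524 at 6 h, then 648 and 430 at 9 h. Its groups overlap at 9 h against 0 h (-0.19 ± 0.31). Of its 4 probe sets, 4 shared the sign of the gene's change at 6 h and 3 at 9 h against 0 h, where 214021_x_at was at 0.28. ITGA8, a beta 1 partner that binds nephronectin in the developing kidney, read 20.4 and 48.0 at 0 h, 12.7 and 38.5 at 6 h, then 24.6 and 53.4 at 9 h. ITGB8, the alpha V partner that releases latent TGF-beta, read 14.9 and 25.1 at 0 h, 12.7 and 20.4 at 6 h, then 12.7 and 23.6 at 9 h. For both of these genes every array of experiment 1 lies below every array of experiment 2. Within both experiments ITGA8 was lowest at 6 h and highest at 9 h, and ITGB8 was lower at 6 h and at 9 h than at 0 h.

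The collagen receptors were measured for 2 alpha chains. ITGA10, known from cartilage, read 57.8 and 45.0 at 0 h, 75.6 and 78.6 at 6 h, then 46.6 and 74.6 at 9 h. Both 6 h arrays lie above both 0 h arrays, for a change of 0.60 ± 0.44 (limma adjusted p = 0.969). On the unscaled values it was -0.80, where the median of all genes was -1.37. ITGA2, the alpha chain of the collagen receptor of epithelia and platelets, read 65.0 and 57.4 at 0 h, 77.1 and 50.1 at 6 h, then 53.0 and 33.8 at 9 h. Its 9 h arrays lie below both 0 h arrays (-0.53 ± 0.47). ITGA1 was above the floor on 1 array, at 20.3 units.

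ITGA9, whose product pairs with beta 1 and binds tenascin-C and VCAM1, had the largest fitted change against 0 h of the 27 genes, at 6 h. It was at the floor of 12.7 on both 0 h arrays and read 35.2 and 36.6 at 6 h and 16.2 and 22.0 at 9 h. All 4 later arrays lie above both 0 h arrays, and the 6 h arrays above the 9 h arrays. Because the 0 h arrays are at the floor, it was at least 2.82-fold higher at 6 h and at least 1.48-fold higher at 9 h than at 0 h. The fitted change at 6 h was 1.50 ± 0.36 (limma adjusted p = 0.969, or 0.370 with the replicate block). At 9 h against 6 h it was -0.93 ± 0.36. The probe set passed the filter through its 6 h and 9 h arrays alone. Both 0 h values are the same floored number, so the 0 h arrays add no spread to the SE. As deposited, before normalisation, the values were 19.7 and 7 at 0 h, 13.9 and 29.8 at 6 h, then 15.4 and 19.5 at 9 h. Within experiment 1 the deposited 6 h value was thus below that at 0 h, on an array whose median was the lowest of the 6, and the unscaled change at 6 h was 0.47. ITGA4, the related chain of the VCAM1 and fibronectin receptor of leukocytes, read 67.4 and 92.5 at 0 h, 80.6 and 74.2 at 6 h, then 92.4 and 68.1 at 9 h. Its groups overlap in every comparison (0.01 at 9 h against 0 h).

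Of 7 genes known from the integrins of leukocytes and platelets, 4 were tested, with changes between -0.83 and 0.23 at 6 h and between -0.58 and 0.26 at 9 h against 0 h. ITGAE, the chain that binds E-cadherin when paired with beta 7, read 408 and 359 at 0 h, 517 and 392 at 6 h, then 556 and 377 at 9 h. Its 0, 6 and 9 h groups overlap, and the gene of its known partner, ITGB7, was at the floor on all 6 arrays. ITGAX was also at the floor on all 6 arrays, and ITGAL was above it on 1. ITGB2, the beta chain of the leukocyte integrins, read 21.6 and 12.7 at 0 h, 12.7 and 18.3 at 6 h, and 12.7 on both 9 h arrays. ITGA2B, the platelet fibrinogen receptor chain, read 36.2 and 42.5 at 0 h, 38.2 and 12.7 at 6 h, then 20.8 and 37.7 at 9 h, while its 3 other probe sets were at the floor on all 6 arrays.

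ITGAM, the alpha chain of complement receptor 3, has 2 probe sets that disagree. The first, 205785_at, read 56.6 and 52.5 at 0 h, 49.2 and 54.1 at 6 h, then 37.0 and 35.8 at 9 h, so that both 9 h arrays lie below all the others (-0.58 ± 0.41 against 0 h, limma adjusted p = 0.813). The second, 205786_s_at, read 15.4 and 73.5 at 0 h, 12.7 and 78.5 at 6 h, then 48.0 and 134.5 at 9 h, a change of 1.26 with the opposite sign. Of 10 leukocyte markers on the array, LYZ was at the floor on all 6 arrays and 5 were above it on all 6. PTPRC, the pan-leukocyte marker CD45, ran between 12.7 and 44.3 units. The summed level of the leukocyte markers ran between 683 and 1158 units over the arrays, of which LCP1 alone gave 462 to 962. CD14 and CORO1A were above the floor on 1 array each. The part of other cells in the ITGAM values was not tested.

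Around the integrins, 7 lists of partner genes held 105 tested genes, and 0 of them passed the threshold in any comparison, with or without the replicate block. Among all genes, 28% were higher and 29.5% lower in both experiments at 9 h against 0 h. The tetraspanins and other membrane partners had the lowest list median at 9 h against 0 h, -0.38 over 12 genes, with 1 higher and 7 lower in both experiments. They include SLC3A2, which binds the tail of integrin beta chains: it read 328 and 625 at 0 h, 698 and 1155 at 6 h, then 595 and 1746 at 9 h, a change of 1.17 ± 0.56 at 9 h (limma adjusted p = 0.703, or 0.0798 with the block). CD9, a tetraspanin that associates with integrins, had a change of -0.96 ± 0.76. The adaptors, kinases and regulators of integrins had a median of -0.23 over 30 genes, with 4 higher and 12 lower in both. Of these, FERMT2, a kindlin that activates integrins, was at 0.82 and the kinase gene PTK2B at -0.80. PTK2B was near the floor, at 20.5 and 53.25 at 0 h, then 13.3 and 27.2 at 9 h. The matrix ligands had a median of 0.00 over 17 genes, with 5 higher and 7 lower in both. Among them TNC, the tenascin-C that ITGA9 binds, read 12.7 and 184 at 0 h, 51.8 and 216 at 6 h, then 31.1 and 361 at 9 h, which is higher at both later times within each experiment (1.13 ± 1.52 at 9 h). FGG, a fibrinogen chain, was at 1.31, from low values of 19.0 and 12.7 at 0 h to 37.8 and 39.55 at 9 h. The basement membrane partners of laminins had a median of -0.26 over 13 genes and 2 higher and 5 lower in both. Among them NTN1, a netrin built like a laminin arm, was at -0.78. It read 33.55 and 31.1 at 0 h, then 12.7 and 27.9 at 9 h, the 12.7 being the floor. NID2, a nidogen that links laminin to collagen IV, was at -0.73. The non-integrin laminin receptors and hemidesmosome genes had a median of -0.20 over 11 genes and 3 higher and 5 lower in both. The Lutheran receptor gene BCAM was at 1.15, with 0.19 in experiment 1 and 2.12 in experiment 2. PLEC, the plectin of hemidesmosomes, was at -1.10. The proteases acting on laminins and integrins had a median of -0.24 over 12 genes and 2 higher and 6 lower in both, with the metalloprotease gene ADAM15 at -0.85 and the gelatinase gene MMP2 at -0.62. The cell-borne ligands had a median of -0.04 over 10 genes and 2 higher and 2 lower in both. The junction gene JAM2 was at 1.27 and ICAM2, a ligand of leukocyte integrins, at -1.04, both with an array at the floor. JAM2 read 27.1 and 12.7 at 0 h, then 43.05 and 46.75 at 9 h. For ICAM2 the values were 34.75 and 41.5 at 0 h, then 12.7 and 26.85 at 9 h. Within experiments 1 and 2 the 9 h medians were -0.50 and -0.27 for the membrane partners and -0.37 and -0.00093 for the adaptors. They were -0.21 and 0 for the matrix ligands and -0.33 and 0.32 for the basement membrane partners. For the non-integrin receptors they were -0.17 and -0.23, for the proteases -0.26 and -0.14, and for the cell-borne ligands -0.11 and 0.40.

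Some of these genes differed between the experiments at all 3 times, and LAMA4 was the one whose standing probe set passed a test. This comparison was chosen after the values had been seen. It takes the experiment term of the model that holds both time and experiment, as experiment 1 minus experiment 2. Experiments were taken from the titles, and the comparison was not run by the lot, which differs for the 6 h array titled experiment 2. Of all tested probe sets 2.48% passed the threshold, 455 in number, and 3 of the 50 integrin and laminin probe sets did: 2 for LAMA4 and 1 for ITGAM. The arrays of experiment 1 lay wholly above those of experiment 2 for 3 of 27 genes and wholly below for 3, beside 9.39% and 10.6% of all genes.

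LAMA4 is the laminin alpha chain of vessels, fat and mesenchymal cells. The probe set standing for it, 202202_s_at, read 257, 195 and 253 at 0, 6 and 9 h in experiment 1, and 86.2, 76.1 and 97.0 at the same times in experiment 2. The groups lie far apart, while within an experiment the times are close: the change at 9 h against 0 h was 0.08 and at 6 h -0.29. The difference was 1.44 ± 0.24 on the log2 scale, or 2.71-fold higher in experiment 1 (limma adjusted p = 0.0184), and it was 1.57, 1.36 and 1.38 at 0, 6 and 9 h taken singly. A second probe set, 210990_s_at, read 97.6, 33.1 and 104 in experiment 1 and 25.4, 13.8 and 15.4 in experiment 2, a difference of 1.98 ± 0.42 (limma adjusted p = 0.0443). Another, 210089_s_at, read 163, 12.9 and 96.4 in experiment 1 and was at the floor on all 3 arrays of experiment 2, with 2.21 ± 0.62 (limma adjusted p = 0.0921). Its 12.9 at 6 h is barely above the floor, and the deposited 6 h values were 5.4 and 6. In 210990_s_at and 210089_s_at the times are less close, with fitted changes of -1.22 ± 1.03 and -1.83 ± 1.29 at 6 h against 0 h. The remaining pair, 210989_at and 216081_at, overlapped between the experiments, with differences of -0.10 and -0.13. The call for 202202_s_at was lost in a fit with no intensity trend (adjusted p = 0.116) and with no filter on low values (0.264). With the floor at the 10th percentile it was the 1 integrin or laminin probe set that passed. As deposited, unscaled values of this probe set were 483, 65.0 and 294 at 0, 6 and 9 h in experiment 1, and 89.2, 59.7 and 83.2 in experiment 2. The plot of the LAMA4 probe sets shows 3 of 5 with experiment 1 above experiment 2.

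**Figure D3:**
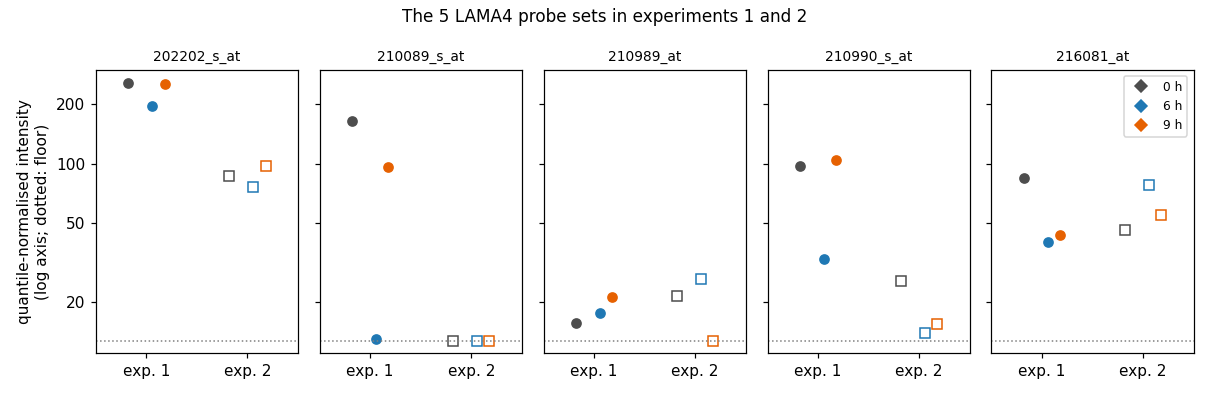
Quantile-normalised intensity on a log axis for the 5 LAMA4 probe sets, with experiment 1 (circles) left of experiment 2 (open squares) in each panel, colours for 0, 6 and 9 h and a dotted line at the floor. In 202202_s_at, 210089_s_at and 210990_s_at every circle is above every square, and in 210989_at and 216081_at they overlap. The 6 h circle of 210089_s_at is barely above the floor.

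The ITGAM call was in the second probe set, 205786_s_at, which read 15.4, 12.7 and 48.0 at 0, 6 and 9 h in experiment 1 and 73.5, 78.5 and 134.5 in experiment 2. It was 4.35-fold lower in experiment 1 (-2.12 ± 0.39, limma adjusted p = 0.0277), whereas the other ITGAM probe set differed by 0.01. LAMB3 and ITGA8 were lower in experiment 1 on all arrays, by differences of -1.02 ± 0.30 and -1.32 ± 0.37, with limma adjusted p of 0.0974 and 0.0897, and ITGB8 by -0.77. ITGB5 and ITGAE were higher in experiment 1 on all arrays, by 0.41 and 0.38.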

How the data were processed

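The members, roles and gene lists were chosen with earlier results of these data known. The authors deposited 1 linear intensity per probe set and array for 6 arrays; the sources used here do not name the software that made them. The deposited intensities were quantile normalised, floored at their 25th percentile (12.7 units, or log2 of 3.67) and put on a log2 scale here. The platform's probe table gave 1 symbol for 19071 probe sets, several for 1043 and none for 2169. The 68 Affymetrix controls were left out, and 18360 probe sets above the floor on at least 2 arrays were tested in limma 3.58.1 (R 4.3.3) by moderated linear models whose prior variance follows intensity, two-sided, with Benjamini-Hochberg adjustment over all of them and 3 residual degrees of freedom. A gene with both arrays of a group at the floor has only a bound.

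The experiment number, taken from the titles, marks an RNA batch per the labels and so pairs the arrays. For the 6 h array titled experiment 2 the lot in the label is that of experiment 1. Deviations of arrays of the same experiment correlated at 0.247, 0.336 and 0.391. The fit with the experiment as a replicate block has 2 residual degrees of freedom. Values on every array are given for genes past the threshold, those changed at least 2-fold in both experiments, the 5 highest and 5 lowest with the same sign in both at each time, and the chains of the main receptors and laminins; of each partner list, the 2 with the largest change at 9 h of the same sign in both experiments. ITGA4 and others outside this rule were added to account for all members. Alternatives varied the scaling, floor, filter, trend, probe set rule and arrays.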

Additional observations from a re-analysis of the deposited data

How the results depend on the processing

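No integrin or laminin probe set passed the threshold between times under any alternative run, the replicate block included. The counts over all probe sets were 66 with the replicate block and 0 with the replicate block by lot (9 h against 0 h), and with no filter on low values 24, 12 and 18 (6 h against 0 h, 9 h against 0 h, 9 h against 6 h). The block changed no call of a member. Unscaled, the members' median change was -1.42, -0.78 and 0.83 in the same order, beside shifts of -1.37, -0.57 and 0.78 for all genes, and 3 members were at least 2-fold changed in both experiments at 6 h. With only probe sets above the floor on all 6 arrays that count was 0, since ITGA9 is then not tested. Leaving out 1 array at a time, the members' median ran between -0.12 and 0.01, between -0.25 and -0.02, and between -0.23 (without 9 h replicate 2) and 0.00055 (without 0 h replicate 1). Of 23 named genes, the direction held under every setting for 6 at 6 h against 0 h, 7 at 9 h against 0 h and 2 at 9 h against 6 h, and turned on the unscaled values alone for 4, 3 and 5. ITGA9 kept its direction throughout, between 0.47 and 2.03 at 6 h against 0 h, and ITGA6 at both times against 0 h. Both 0 h arrays of ITGA9 are at the floor in the main setting, where a fall against 0 h could not have been seen.

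Between the experiments, the count of all probe sets was 914 with log2(value + 16), 1061 above the floor on all 6 arrays, 1 with no intensity trend and 0 with no filter, and ran between 361 and 1689 with 1 array left out (1620 without 0 h replicate 1, 1689 without 0 h replicate 2, 714 without 9 h replicate 1). The members among them were 1 with the floor at the 10th percentile, 0 with no trend, 0 with no filter, and 2 to 5 with 1 array left out (5 without either 0 h array). The cause was not tested. The unscaled values were not run for the experiments, and a change in both experiments cannot be had with an array left out. With 2 arrays a group the number of arrays limits the precision, and genes near the floor have no order there.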
